A study of Homo sapiens with 6 samples.

Results

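LGR5, its relative LGR4 and a set of genes that form the receptor feedback of Wnt signalling were examined in HEY cells upon PQBP1 knockdown. The set holds 10 named genes (LGR4, LGR5, LGR6, RNF43, ZNRF3, AXIN2, DKK1, LEF1, TCF7L2 and CTNNB1), and 9 of them were found by gene name among the 32679 genes of the table, while LGR6 was not analysed here. LGR5 was picked by its higher level in these very samples, so its values are given as a description with no test, and the other genes were named as its partners in the pathway.

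HEY is an established ovarian cancer cell line, and PQBP1 encodes polyglutamine-binding protein 1, a nuclear protein that works with the spliceosome. RNA-seq was done on 3 samples with a control hairpin (shNC, no treatment) and 3 samples with a hairpin against PQBP1 (shPQBP1, doxycycline at 1 µg/ml), all at day 3. As the labels have it, only cells with the PQBP1 hairpin received doxycycline, and the contributions of hairpin and drug cannot be told apart. The study's methods describe lentiviral hairpins and selection of a stable line. They name a doxycycline-inducible plasmid for PQBP1 expression but not for the hairpin, although elsewhere the paper has doxycycline inducing the knockdown. Nothing in the sources used here says that the 3 samples of a group came from separate cultures, so the p-values measure only the spread between these samples. Levels are in FPKM, a fragment count scaled by transcript length and by the mapped total, which allows levels to be compared between genes.

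LGR4, LGR5 and LGR6 are seven-pass membrane receptors with leucine-rich repeats that bind R-spondins, and LGR5 is best known as a marker of stem cells in the intestine and of progenitor cells in the ovarian surface and tubal epithelium. RNF43 and ZNRF3 are membrane ubiquitin ligases that remove Frizzled receptors from the cell surface, and R-spondin bound to an LGR receptor holds these ligases back. AXIN2 and DKK1 are induced by beta-catenin (CTNNB1) together with the TCF/LEF factors, and both dampen the pathway in turn, AXIN2 inside the cell and DKK1 as a secreted protein that blocks the LRP5 and LRP6 co-receptors.

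In the samples, LGR5 was 4.61-fold higher in shPQBP1 than in shNC cells by the ratio of the mean FPKM, although its level stayed low. DKK1, the most abundant gene of the set, rose 1.29-fold. The LGR4 and TCF7L2 levels overlapped between the groups, as did those of ZNRF3, and CTNNB1 was lower in every shPQBP1 sample without passing the adjusted threshold. RNF43, AXIN2 and LEF1 were below 1 FPKM in all samples.

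PQBP1 itself, the target of the hairpin, had 7.18, 6.67 and 6.93 FPKM in the shNC samples against 1.68, 1.72 and 1.44 under the knockdown hairpin, with a log2 fold change of -2.04 (SE 0.10, limma-adjusted p = 0.00154). The sums of FPKM over all genes were 294970.3 to 318484.3 in shNC and 278285.8 to 287422.6 in shPQBP1 samples, so that the groups did not overlap. The number of reads behind these sums is unknown. Across genes, shNC sample 1 correlated with the other samples at a Pearson r of 0.926 to 0.955, while each of the others reached 0.965 or more with at least 1 sample. Without shNC sample 1 the log2 difference of LGR5 was 1.78. Cytokeratin genes KRT7, KRT8 and KRT18 and the tubal lineage gene PAX8 were present in all samples, whereas the ovarian carcinoma markers CDH1, MUC16, CLDN3, CLDN4 and FOLR1 stayed at or below 0.18 FPKM. EPCAM lay between, at 0.79 to 1.13 FPKM. PAX8 was at 12.33 to 15.7 FPKM in shNC and 18.41 to 24.08 in shPQBP1 samples (limma-adjusted p = 0.102). KRT19 was at 1.19 to 1.65 and 1.7 to 2.1 FPKM (limma-adjusted p = 0.218). WT1 was lower in shPQBP1 samples, at 0.63 to 0.71 and 0.31 to 0.45 FPKM. Of the leukocyte markers, PTPRC was at 0 in all 6 samples, while CD68, a lysosomal gene also found outside macrophages, was at 9.12 to 15.57 FPKM in shNC and 12.14 to 21.16 in shPQBP1 samples. Of 4 endothelial markers, CDH5 was at 2.11 to 2.96 FPKM in shNC and 3.1 to 3.64 in shPQBP1 samples (limma-adjusted p = 0.151). PECAM1 went the other way at a low level, with 0.23 to 0.25 FPKM in shNC and 0.02 to 0.06 in shPQBP1 samples. VWF and KDR overlapped between the groups at or below 0.18 FPKM. The list summed to 2.43 to 3.29 and 3.25 to 3.91, mostly from CDH5. Summed levels of 8 fibroblast markers were 8.17 to 8.88 FPKM in shNC and 8.13 to 9.88 in shPQBP1 samples, nearly all from ACTA2. Summed levels of 7 mesenchymal markers were 1190 to 1310 FPKM in shNC and 1440 to 1540 in shPQBP1 samples, mostly from VIM, which did not pass the test (limma-adjusted p = 0.217). Of the 7, only FN1 had an adjusted p under 0.05 (limma, 0.00176), at 42.51 to 44.57 FPKM in shNC and 127.42 to 154.68 in shPQBP1 samples. ZEB1 was at 2.94 to 6.15 and 6.31 to 9.76 FPKM (limma-adjusted p = 0.157). The groups overlapped for CDH2, ZEB2, SNAI2 and TWIST1. The part of these marker differences in the values below was not tested.

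**Figure D1:**
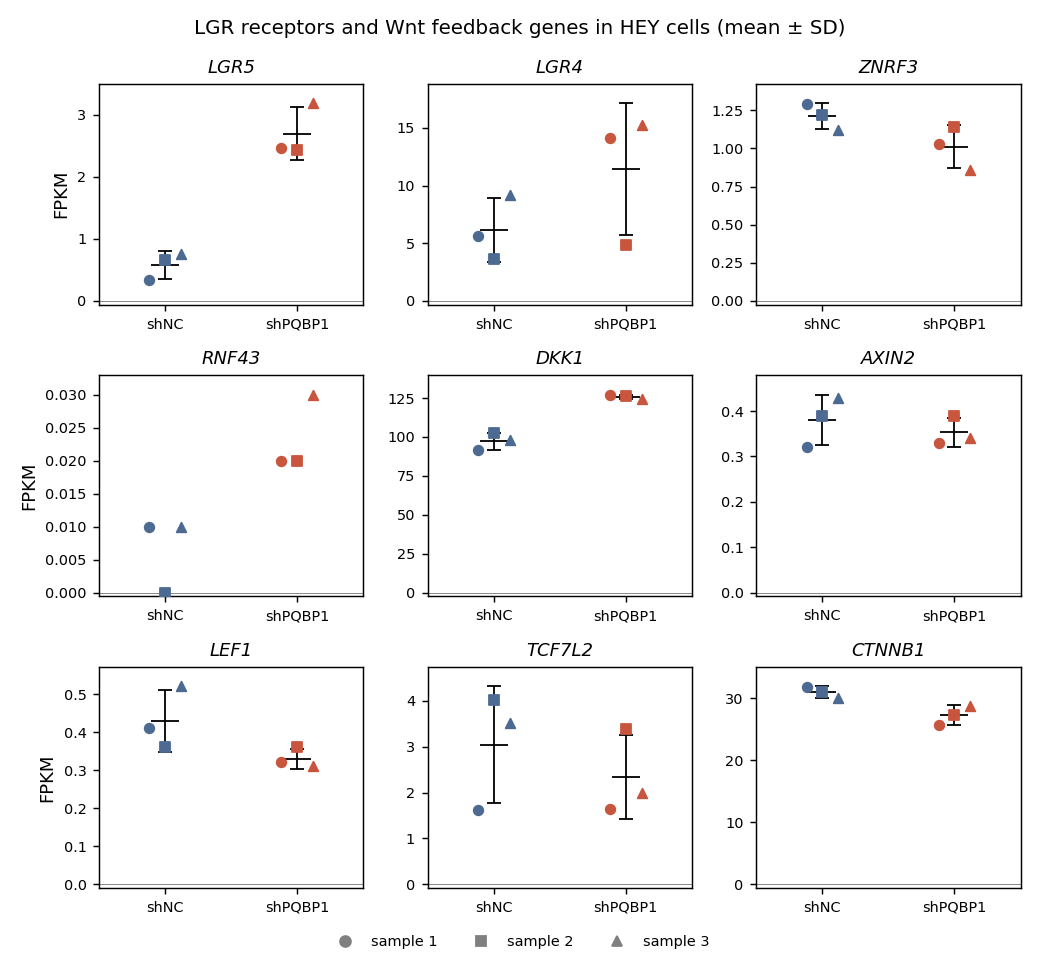
FPKM of 9 genes (1 panel each, linear axes) in the 3 shNC samples (blue) and the 3 shPQBP1 samples (red), with black bars for the mean ± SD except in RNF43, which is listed at 0 in 1 sample. The LGR5 and DKK1 points of the groups lie apart with shPQBP1 above, the CTNNB1 points lie apart with shPQBP1 below, and the LGR4 and TCF7L2 points spread widely within each group.

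LGR5 (ENSG00000139292, hg38 chr12:71439798-71586310, plus strand) was measured at 0.33, 0.66 and 0.76 FPKM in shNC samples 1 to 3 and at 2.46, 2.43 and 3.18 FPKM in shPQBP1 samples 1 to 3. The lowest shPQBP1 value lay above 3 times the highest shNC value, and the group means were 0.583 ± 0.225 and 2.69 ± 0.425 (SD, n = 3 each). On the scale of log2(FPKM + 0.1) the difference was 2.08. LGR5 passed the filter used for tests, an average of at least 1 FPKM over the 6 samples, only through its shPQBP1 values. With 1 sample left out in turn this difference ranged from 1.78 to 2.28, and with a pseudocount of 1 in place of 0.1 it was 1.22. In bulk RNA, more cells with LGR5 transcripts and more transcripts per cell cannot be told apart.

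LGR4 (ENSG00000205213, chr11:27365961-27472790, minus strand), the family member with the broader expression in adult tissues, had 5.6, 3.68 and 9.2 FPKM in the shNC samples and 14.14, 4.87 and 15.27 in the shPQBP1 samples. The groups overlapped, because sample 2 had the lowest value of both groups and shPQBP1 sample 2 lay below 2 of the shNC samples. The log2 fold change of LGR4 was 0.81 with a 95% interval from -0.45 to 2.08 (limma-adjusted p = 0.363, and p = 0.3 by a two-sided exact permutation test of the FPKM). This interval reaches from a fall to a rise as large as that of LGR5, so that a difference in LGR4 was not detectable with 3 samples a group.

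LGR4 was the more abundant of the LGR receptors in each of the 6 samples. LGR5 made up 5.56%, 15.2% and 7.63% of the summed LGR4 and LGR5 FPKM in the shNC samples, and 14.8%, 33.3% and 17.2% in the shPQBP1 samples. The shares overlapped between the groups, since shNC sample 2, with the lowest LGR4 among the controls, had a larger LGR5 share than shPQBP1 sample 1. The sum of both receptors was 5.93, 4.34 and 9.96 FPKM in shNC and 16.6, 7.3 and 18.4 in shPQBP1 samples.

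**Figure D2:**
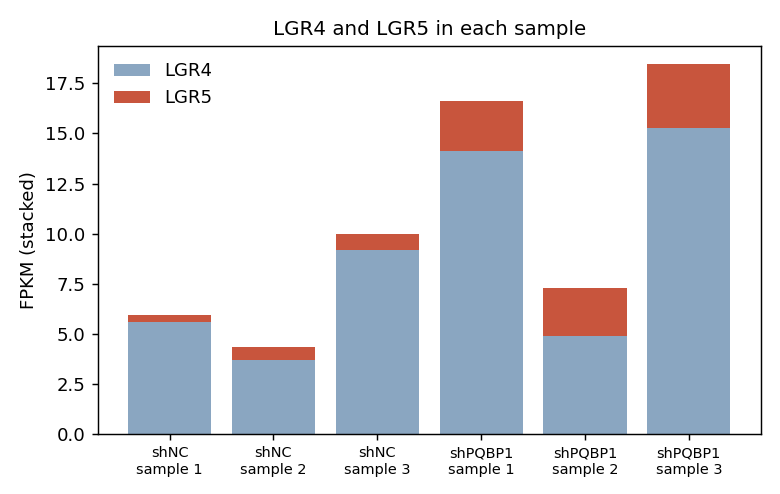
Stacked bars of LGR4 (blue) and LGR5 (red) FPKM in each of the 6 samples. LGR5 adds 0.33 to 0.76 FPKM in the shNC samples and 2.43 to 3.18 in the shPQBP1 samples, and LGR4 is the larger portion of every bar.

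Of the ubiquitin ligases that LGR receptors restrain, ZNRF3 (chr22:28883572-29057488, plus strand) was at 1.29, 1.22 and 1.12 FPKM in the shNC samples and at 1.03, 1.14 and 0.86 in the shPQBP1 samples. The values overlapped at shPQBP1 sample 2, and the log2 fold change was -0.24 with a 95% interval from -0.64 to 0.15 (limma-adjusted p = 0.374). RNF43 (chr17:58353676-58417595, minus strand) was listed at 0.01, 0 and 0.01 FPKM in shNC and at 0.02, 0.02 and 0.03 in shPQBP1 samples, steps so close to the rounding of the table that no fold is given. Of this pair of ligases, ZNRF3 was the one averaging at least 1 FPKM in HEY cells.

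DKK1 (ENSG00000107984, chr10:52314281-52318042, plus strand) had 91.54, 102.49 and 97.86 FPKM in the shNC samples and 126.78, 126.01 and 124.1 in the shPQBP1 samples. All shPQBP1 values were above all shNC values, and the shPQBP1 samples differed less among themselves (SD 1.38) than the shNC samples did (SD 5.50). The log2 fold change was 0.37 (SE 0.07, 95% interval 0.21 to 0.53, limma-adjusted p = 0.0477), while the exact permutation test gave p = 0.1, the smallest that 3 against 3 samples allow. This call sits at the threshold: the adjusted p was 0.0524 after median-of-ratios scaling and 0.101 when genes with a low FPKM were tested too, and it stayed under 0.05 in 1 of 6 fits with a sample left out, that without shNC sample 1 (0.0346, highest 0.182).

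Among the genes of the set other than LGR5, 5 passed the filter and 1, DKK1, was called, higher in shPQBP1. In the table as a whole, 1.73% of the 11413 genes tested were called higher and 1.18% lower at an adjusted p under 0.05. At an unadjusted p under 0.05 the shares were 11.9% higher and 11.7% lower. Groups that did not overlap were found in 17.3% of genes with shPQBP1 above and in 17.1% with shPQBP1 below, so that DKK1 above and CTNNB1 below are common patterns in these data.

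The 250 bases upstream of the DKK1 start in RefSeq (GRCh38.p14, chr10:52314031-52314280, plus strand) are shown because they hold sites of the TCF/LEF type, and the same stretch of LGR4 (chr11:27472791-27473040, minus strand) is shown as a member without one. Capitals mark matches to the TCF/LEF core in the spelling CTTTGAA, the spelling CTTTGAT, the spelling CTTTGTA or the spelling CTTTGTT, searched on both strands.
DKK1: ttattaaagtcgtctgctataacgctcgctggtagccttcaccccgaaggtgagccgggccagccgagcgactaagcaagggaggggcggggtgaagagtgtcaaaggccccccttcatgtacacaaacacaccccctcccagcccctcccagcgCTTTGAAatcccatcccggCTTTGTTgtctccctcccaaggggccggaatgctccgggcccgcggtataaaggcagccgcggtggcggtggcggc
LGR4: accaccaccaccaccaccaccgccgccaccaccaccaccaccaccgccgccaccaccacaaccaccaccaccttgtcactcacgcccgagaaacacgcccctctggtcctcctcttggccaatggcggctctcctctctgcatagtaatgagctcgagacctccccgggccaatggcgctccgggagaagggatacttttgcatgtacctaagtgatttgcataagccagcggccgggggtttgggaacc
The DKK1 stretch holds CTTTGAA with its first base 95 bases before the start and CTTTGTT with its first base 76 bases before it, on the strand of the gene and not overlapping. Of 35116 upstream windows of this length in the RefSeq table, 12.0% held at least 1 match and 1.2% held at least 2. TCF7L2 had 1 match in 1 of its 3 windows, and none was found in the windows of LGR4, LGR6, RNF43, LEF1 and CTNNB1. LGR5, ZNRF3 and AXIN2 had no window here and were not searched. A match of letters is a description only and is no measure of binding.

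AXIN2, the feedback scaffold of the destruction complex (chr17:65528563-65561648, minus strand), stayed at 0.32, 0.39 and 0.43 FPKM in the shNC samples and 0.33, 0.39 and 0.34 in the shPQBP1 samples. Its groups overlapped almost entirely, and without the filter on low values its log2 fold change was -0.078 with a 95% interval from -0.597 to 0.44 (limma-adjusted p = 0.867 over 30717 genes). AXIN2 and DKK1 are both used as readouts of beta-catenin activity, and in these cells they stood near the bottom and at the top of the set.

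LEF1 (chr4:108047545-108168956, minus strand), a factor that brings beta-catenin to DNA, was at 0.41, 0.36 and 0.52 FPKM in shNC and at 0.32, 0.36 and 0.31 in shPQBP1 samples. The groups met at 0.36, and without the filter the adjusted p from limma was 0.628. TCF7L2 (chr10:112950247-113167678, plus strand), the more abundant factor of this kind in the set, had 1.61, 4.02 and 3.51 FPKM in shNC and 1.64, 3.39 and 1.99 in shPQBP1 samples. Sample 1 was the lowest of both groups, and the log2 fold change of -0.33 had a 95% interval from -1.32 to 0.65 (limma-adjusted p = 0.623).

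CTNNB1 (chr3:41194741-41260096, plus strand), which encodes beta-catenin, had 31.91, 30.99 and 29.99 FPKM in the shNC samples and 25.63, 27.37 and 28.85 in the shPQBP1 samples. Each shPQBP1 value lay below each shNC value, by a log2 fold change of -0.18 with a 95% interval from -0.37 to 0.0004. The unadjusted p from limma was 0.0503 and the adjusted p was 0.212, so that the difference did not pass the threshold. Beta-catenin activity is set mainly through protein stability, which RNA levels do not show.

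In the order of levels, DKK1 stood first in both groups, followed by CTNNB1 and LGR4, and RNF43 stood last. LGR5 came after ZNRF3 in the shNC samples, where its range overlapped those of LEF1 and AXIN2. In the shPQBP1 samples LGR5 came directly after LGR4, and its range overlapped that of TCF7L2. The LGR4 and TCF7L2 ranges overlapped in the shNC samples, and those of LEF1 and AXIN2 overlapped in both groups.

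**Figure D3:**
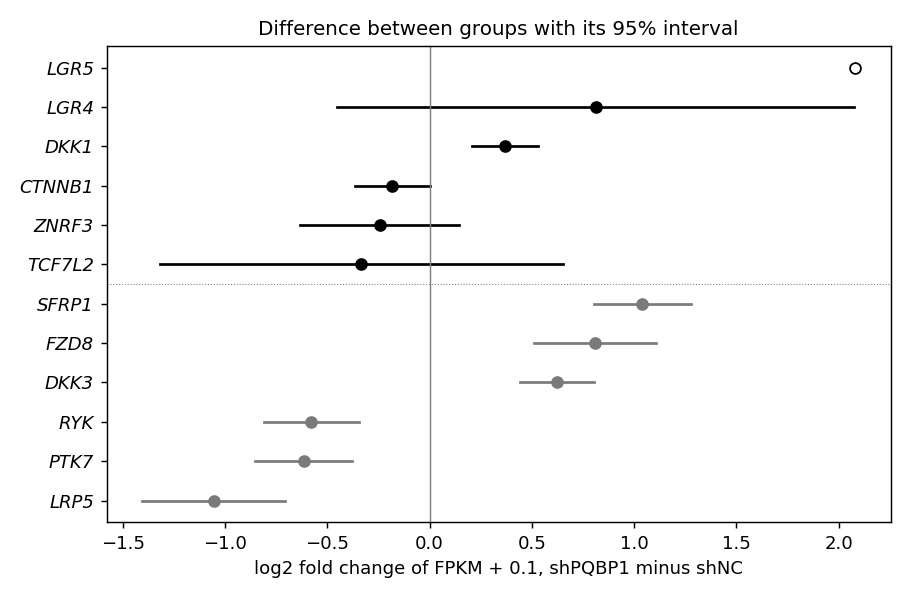
Log2 fold changes of FPKM + 0.1 (shPQBP1 minus shNC) for the 6 genes of the set averaging at least 1 FPKM (black, above the dotted line) and for 6 other Wnt pathway genes that passed the adjusted threshold (grey), with 95% intervals from limma. LGR5 is drawn as an open point without interval at 2.08 because it was picked on this difference, and of the other black points the interval of DKK1 alone lies clear of 0.

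The wider Wnt pathway was followed in 9 gene lists. They hold 116 genes with a value, of which 60 averaged at least 1 FPKM, and 3 of these rose and 3 fell at an adjusted p under 0.05 (6 of 60, against 2.91% of all genes tested). At an unadjusted p under 0.05, 13 of the 60 were higher and 9 lower, against 11.9% and 11.7% of all genes tested. These shares over all genes also belong beside the unadjusted counts of the single lists below. The median log2 fold change was 0.085, against 0.021 over all genes.

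Of the extracellular Wnt inhibitors, 2 of the 3 tested rose. SFRP1, which binds Wnt ligands outside the cell, had 26.43, 23.01 and 22.19 FPKM in shNC and 45.79, 52.52 and 49.14 in shPQBP1 samples, a 2.06-fold difference of the means (log2 fold change 1.04, SE 0.10, limma-adjusted p = 0.00919). DKK3, a secreted relative of DKK1, went from 13.62, 12.4 and 12.39 to 19.44, 19.79 and 20.09 FPKM (log2 fold change 0.62, SE 0.07, limma-adjusted p = 0.0181). TRABD2A, a membrane protease that cleaves Wnt ligands, had a log2 fold change of 0.03 (limma-adjusted p = 0.872). With 1 sample left out in turn SFRP1 was called in 4 of 6 fits and DKK3 in 1 of 6.

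Of the 10 Wnt receptors and co-receptors tested, 1 rose and 3 fell at an adjusted p under 0.05. Before adjustment 3 passed 0.05 upwards and 3 downwards, against 11.9% and 11.7% of all genes tested. Their median log2 fold change was -0.022. FZD1 and FZD4 were higher without an adjusted call, with log2 fold changes of 0.41 and 0.36 (limma-adjusted p = 0.0766 and 0.128). FZD8, a Frizzled receptor, had 9.7, 7.4 and 7.82 FPKM in shNC and 13.95, 15.61 and 14.09 in shPQBP1 samples (log2 fold change 0.81, limma-adjusted p = 0.0292). LRP5, a co-receptor that DKK1 blocks, fell from 3.54, 2.78 and 2.73 FPKM to 1.25, 1.48 and 1.45 (log2 fold change -1.06, limma-adjusted p = 0.0235). PTK7 and RYK, transmembrane pseudokinases that take part in Wnt signalling, also fell, with log2 fold changes of -0.62 (limma-adjusted p = 0.0338) and -0.58 (limma-adjusted p = 0.0347). Their values ranged from 6.05 to 6.86 FPKM in shNC and from 3.81 to 4.47 in shPQBP1 samples for PTK7, and from 12.34 to 14.18 and 8.31 to 9.55 for RYK. LRP6, the other co-receptor bound by DKK1, had a log2 fold change of 0.23 with a 95% interval from -0.20 to 0.65 (limma-adjusted p = 0.438), and FZD6, the Frizzled gene with the highest mean, one of -0.04. FZD8, LRP5, PTK7 and RYK were each called in 1 of 6 fits with a sample left out, that without shNC sample 1.

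**Figure D4:**
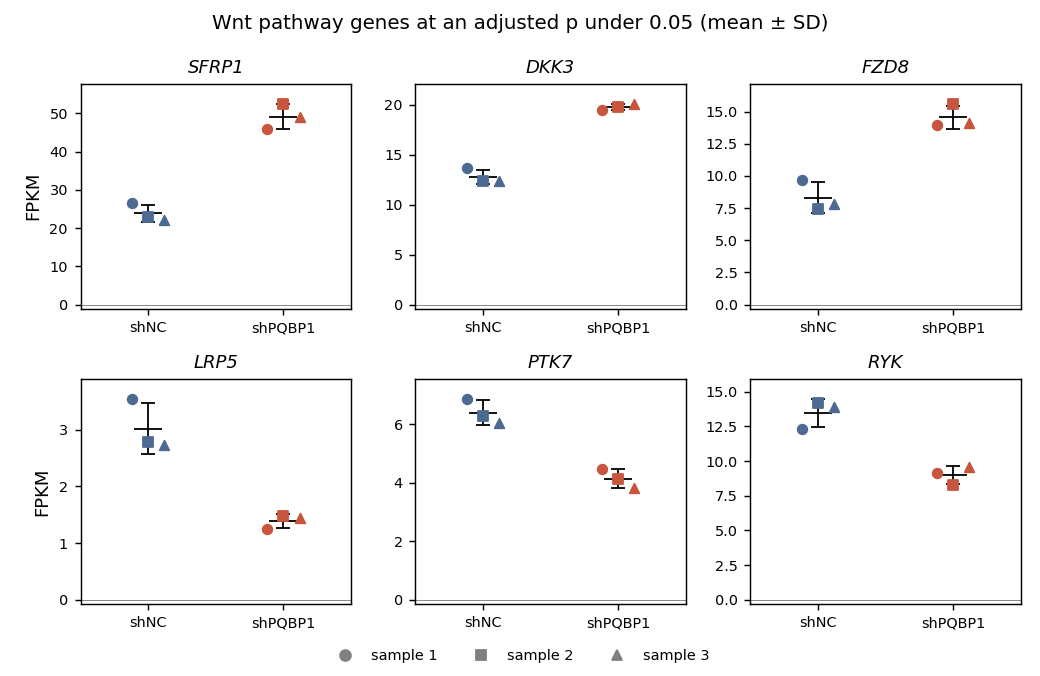
FPKM of 6 Wnt pathway genes outside the set, all with a limma-adjusted p under 0.05, in 3 shNC (blue) and 3 shPQBP1 samples (red), with black bars for the mean ± SD. SFRP1, DKK3 and FZD8 lie higher and LRP5, PTK7 and RYK lower in every shPQBP1 sample.

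Of the 3 Wnt ligands tested with limma, none passed the adjusted threshold and 1 passed 0.05 before adjustment. WNT5B had a log2 fold change of 0.35 (limma-adjusted p = 0.163) and WNT5A one of 0.19 (limma-adjusted p = 0.309), both ligands being best known for signalling apart from beta-catenin. WLS, the carrier that brings Wnt ligands to the cell surface, had 24.65, 22.23 and 22.32 FPKM in shNC and 17.12, 18.63 and 19.53 in shPQBP1 samples, with a log2 fold change of -0.32 (limma-adjusted p = 0.104). PORCN, which attaches the lipid to Wnt ligands, had one of -0.07. Of the R-spondins, RSPO2 and RSPO3 stayed at or below 0.04 FPKM in every sample, and RSPO1 and RSPO4 were not analysed here.

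The destruction complex and Dishevelled list had 18 genes tested and no adjusted call. Before adjustment 3 genes passed 0.05 upwards and 3 downwards, against 11.9% and 11.7% of all genes tested. The casein kinase genes CSNK1G3 and CSNK1G2 had log2 fold changes of 0.65 and -0.34 (limma-adjusted p = 0.184 and 0.0818), TNKS, a tankyrase that marks axin for decay, one of 0.35 (0.13), FBXW11 one of -0.23 (0.207) and CSNK1A1 one of 0.07 (0.575). Among 12 nuclear partners of beta-catenin none was called by limma either, and 1 passed 0.05 before adjustment, with SOX17 at 0.68 (limma-adjusted p = 0.108), AES at 0.20 and TLE1 at 0.15.

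Of the 8 Wnt target genes tested with limma, none passed the adjusted threshold, 1 was higher and 2 were lower at an unadjusted p under 0.05, and their median log2 fold change was -0.058. SOX4 was closest, with 1.55, 1.33 and 1.57 FPKM in shNC and 2.3, 2.9 and 2.34 in shPQBP1 samples (log2 fold change 0.72, limma-adjusted p = 0.0538). EPHB2, a receptor of the crypt base, had a log2 fold change of -0.45 (limma-adjusted p = 0.0818), CD44 one of -0.33 (0.203) and CCND1, the cyclin D1 gene, one of 0.07 (0.436). The 8 tested targets therefore did not move together in 1 direction. The list holds 22 genes with a value, and the rest, such as NKD1, SP5, NOTUM, APCDD1, TCF7 and TNFRSF19, averaged below 1 FPKM and were not tested.

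Among the genes known as companions of LGR5 in stem cells, 7 were tested with limma and none was called, with 2 higher and 2 lower before adjustment. RGMB, a co-receptor of bone morphogenetic proteins, had 24.38, 25.46 and 26.09 FPKM in shNC and 31.03, 33.79 and 33.5 in shPQBP1 samples (log2 fold change 0.37, limma-adjusted p = 0.0548), and CDK6 had a log2 fold change of 0.72 (limma-adjusted p = 0.211). The lower genes were EPHB2 and CD44, which are on this list too. RGMB was called when only genes at a mean FPKM of 10 or more were tested, and RGMB and EPHB2 were called after the correction for GC content and length. Of the other leucine-rich repeat receptors, RXFP1 and LHCGR stayed at or below 0.02 FPKM in every sample.

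The 5 genes whose log2(FPKM + 0.1) followed that of LGR5 most closely over the 6 samples were RAP1GDS1 (Pearson r = 0.9993), AZIN1 (0.9993), PLCG2 (0.9987), MFSD14C (0.997) and FRMD4B (0.9951). RAP1GDS1, for example, had 12.26, 13.58 and 14.01 FPKM in shNC and 17.77, 17.52 and 18.57 in shPQBP1 samples. Over so few points, split by the groups, a high r is easily reached. At the lower level of 0.95 or more there were 332 of 11407 genes, and no test was made.

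Base composition moved with the differences across genes: the Spearman correlation of log2 fold change and GC content was -0.459 over 11385 genes, which share the same 6 libraries. LGR5, LGR4 and DKK1 have a GC content of 43.8%, 42.2% and 43.7%, below the median of 47.5%, and ZNRF3 has 53.5%. After a correction for GC content and length, DKK1 had an adjusted p of 0.018 and LGR5 a log2 difference of 2.01, while calls over all genes rose from 332 to 938. The log2 fold change of LGR4 went from 0.81 to 0.69. LRP5 and PTK7, with a GC content of 62.9% and 60.0%, went from -1.06 to -0.88 and from -0.62 to -0.45. FZD8, with 64.6%, went from 0.81 to 1.00. The part of base composition in these differences was not tested.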

How the data were processed

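RNA-seq of HEY cells was analysed, 3 shNC and 3 shPQBP1 samples, grouped by title and genotype labels. Per the labels and the study's methods, poly(A) RNA was sequenced in paired ends, reads were aligned to hg38 with HISAT2 2.2.0 and sorted with SAMtools 1.9, transcripts were assembled with StringTie 1.3.0, and the authors used edgeR for their own comparison. The annotation release is not given in the sources used here. The deposited table holds FPKM values per gene and sample as the authors made them, without counts. The low values gave no whole-read step, so the depth and the counting error are unknown. The table's columns of the authors' own comparison (fold changes, p-values and calls) were not used.

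Values were taken as log2(FPKM + 0.1) and fitted with limma 3.58.1 (R 4.3.3, mean-variance trend) over the 11413 genes whose FPKM averaged at least 1, with Benjamini-Hochberg adjustment over all of them. A fold change on this scale understates that of low genes. Exact permutation tests were two-sided on FPKM. The code was tested on simulated data. Coordinates and GC content came from GENCODE release 44, and promoter sequences from RefSeq, where 7 of the 10 genes matched.

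The genes, lists and tests were chosen with earlier results of these data known. Named were all genes of the set, PQBP1, in each Wnt list every gene with an adjusted p under 0.05 or otherwise up to 3 with an unadjusted p under 0.05 and groups apart, the 2 most abundant genes of each list, and the 5 genes most like LGR5. LRP6, FZD1, FZD4, TRABD2A, RSPO2, RSPO3, MYC and the markers given by level were named besides, after their values were seen. Alternatives were other scalings, filters, pseudocounts, no trend, a replicate block, leaving out each sample, and a correction for GC content and length.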

Additional observations from a re-analysis of the deposited data

How the results depend on the processing

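No log2 fold change of the 12 genes followed changed its direction in the alternatives run for it; LGR4, LGR5, ZNRF3, TCF7L2, LRP5 and PTK7 have no value at a mean FPKM of at least 10. Of the tested genes, 114 values stayed on their side of the threshold and 46 were past it no longer. The 114 include every value of LGR4, ZNRF3, TCF7L2 and CTNNB1, which had no call to lose. All 46 came from the called genes DKK1, SFRP1, DKK3, FZD8, LRP5, PTK7 and RYK. The difference of LGR5, which has no test, moved to 1.22 with a pseudocount of 1. The count of called genes in the set besides LGR5, 1, was 0 after median-of-ratios scaling, after quantile normalization, when low genes were tested too, without the mean-variance trend and with the replicate block, and 0 to 1 with a sample left out. The 6 calls in the Wnt lists were 5 at a mean FPKM of at least 10, RGMB among them, and became 3 without the filter, 15 after the GC content and length correction and 0 to 6 with a sample left out. Over all genes, 332 calls became 190 without the filter, 211 at a mean FPKM of at least 10, 938 after the GC content and length correction, and 30 (without shPQBP1 replicate 3) to 466 (without shNC replicate 1) with a sample left out; quantile normalization gave 212 higher and 205 lower against 197 and 135. The cause of these moves was not tested.

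Over all genes tested, the deviations of samples with the same number correlated at -0.186, -0.138 and -0.011, and the numbers were not treated as pairs in the tests above. Single genes such as LGR4, TCF7L2 and MYC nevertheless had the same sample number at an extreme in both groups. With the replicate block 0 genes over the table, 0 of the set and 0 in the Wnt lists had an adjusted p under 0.05 (limma, lowest 0.0678), with 1840 at an unadjusted p under 0.05 against 2689 without the block, and PQBP1 itself had a log2 fold change of -2.04 at an adjusted p of 0.0686, past the threshold no longer.

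With 3 samples a group and an unknown depth, RNF43, AXIN2 and LEF1 cannot be resolved, and the wide intervals of LGR4 and TCF7L2 leave large differences possible.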

Other observations

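MYC, a Wnt target that was singled out after its values were seen, had 32.12, 1.31 and 1.46 FPKM in the shNC samples and 13.95, 1.81 and 1.28 in the shPQBP1 samples, so that sample 1 stood far above the other two in both groups.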
